A study of Mus musculus with 4 samples.

Results

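The promoters of the 39 clustered Hox genes were taken from the deposited table of 26354 promoters, as every row whose symbol is Hox followed by a cluster letter, a to d, and a paralog number. Cluster a holds 11 of them, cluster b holds 10, and clusters c and d hold 9 each. By paralog number, 12 are anterior (1 to 4), 15 central (5 to 9) and 12 posterior (10 to 13). H3K9me2 was measured by ChIP-seq in ex vivo vascular smooth muscle cells, that is the medial layer of the aorta, of male C57Bl/6J mice. The adventitia and the endothelium had been removed by hand and the layer was fixed without culture. All libraries share this strain, sex and tissue, and the labels name no treatment or genetic modification. The age and number of the mice are not given in the sources used here. The 2 experiments, v102 and v134, were independent, and each gave 1 ChIP library and 1 input, which is sheared chromatin that was not immunoprecipitated.

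Hox genes encode homeodomain transcription factors that give cells their identity along the body axis. Within each cluster the genes lie in the order in which they are used from head to tail, so that anterior genes stand at one end and posterior genes at the other, and genes with the same number in different clusters are paralogs. Vascular smooth muscle cells come from several embryonic sources along the aorta and are known to keep part of this positional Hox code in the adult. H3K9me2 is a repressive histone mark set mainly by the methyltransferases EHMT2 and GLP, while silent Hox genes are best known for another repressive mark, H3K27me3, set by Polycomb complexes.

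Over all promoters of the table the ChIP libraries held 162233 reads in v102 and 229605 in v134, and the inputs 619100 and 1084349. These totals cover the listed promoters only. The H3K9me2/input ratio given here is ChIP over input reads after scaling each library to its total, so that 1 is the average of the table and not an absolute level of the mark. Intervals at 95% are Wilson intervals for a ratio and exact conditional intervals for a ratio of ratios. They cover counting error only, since the counts carry no molecular identifiers and reads may be copies of 1 molecule. The 2 ChIP libraries differed by more than counting error over all promoters (chi-square per degree of freedom 1.52), so these intervals are too narrow for the difference between experiments. A promoter is called below or above input when it had fewer or more ChIP reads relative to input than the normalization over all promoters sets as equal, in the quasi-likelihood test of edgeR, at 0.05 after Benjamini-Hochberg adjustment. With 2 experiments no permutation test can pass 0.05. A promoter window reaches 1 kb either side of the start site.

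On GRCm38 the Hoxa genes lie on chromosome 6. The starts of the Hoxb genes span chr11:96194316-96365752, those of the Hoxc genes chr15:102921103-103018934 and those of the Hoxd genes chr2:74668310-74762980, by GENCODE vM21. No Hox window overlapped another, since the closest starts lay 4135 bases apart. The windows of Hoxa9, Hoxb4 and Hoxc5 did overlap those of the microRNA genes Mir196b, Mir10a and Mir615. The window of Hoxa3 starts at its most upstream transcript, between Hoxa6 and Hoxa7, and had the same counts in every library as the row Gm20653.

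Promoter sequence from RefSeq (GRCm38.p6) could be read inside the window for 19 of the 39 members. The 250 bases before the RefSeq start are shown for 3 members below input, Hoxa13 (chr6:52260881-52261130, minus strand), Hoxa6 (chr6:52208673-52208922, minus strand) and Hoxb4 (chr11:96318017-96318266, plus strand). They are set against 3 of the members with the highest ratio, Hoxd4 (chr2:74721728-74721977, plus strand), Hoxd9 (chr2:74697513-74697762, plus strand) and Hoxd10 (chr2:74691641-74691890, plus strand). The letters run 5′ to 3′ on the gene's strand and capitals mark each CG pair. They are shown because the ratio fell with GC and CpG content over the whole table, while members of similar base composition lay far apart.
Hoxa13: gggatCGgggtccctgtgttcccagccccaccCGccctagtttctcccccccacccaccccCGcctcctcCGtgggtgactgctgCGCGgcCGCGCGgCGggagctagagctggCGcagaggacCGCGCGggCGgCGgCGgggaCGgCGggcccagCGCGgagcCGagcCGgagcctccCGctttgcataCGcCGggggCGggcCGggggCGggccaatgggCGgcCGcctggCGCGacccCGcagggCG
Hoxa6: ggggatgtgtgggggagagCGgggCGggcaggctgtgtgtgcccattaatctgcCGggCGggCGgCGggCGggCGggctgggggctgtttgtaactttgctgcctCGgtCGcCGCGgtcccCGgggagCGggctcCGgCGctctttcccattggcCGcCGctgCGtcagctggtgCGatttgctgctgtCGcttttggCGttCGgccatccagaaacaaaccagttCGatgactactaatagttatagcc
Hoxb4: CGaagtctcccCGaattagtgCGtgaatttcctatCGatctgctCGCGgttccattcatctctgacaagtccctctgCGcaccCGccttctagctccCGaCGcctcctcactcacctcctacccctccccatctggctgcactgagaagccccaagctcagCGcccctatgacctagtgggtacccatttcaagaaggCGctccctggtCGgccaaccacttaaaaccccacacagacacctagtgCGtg
Hoxd4: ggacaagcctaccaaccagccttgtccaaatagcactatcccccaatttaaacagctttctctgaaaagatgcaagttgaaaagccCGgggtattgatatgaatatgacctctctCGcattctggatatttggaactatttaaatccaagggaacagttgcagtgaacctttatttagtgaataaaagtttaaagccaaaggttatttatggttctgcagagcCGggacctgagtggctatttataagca
Hoxd9: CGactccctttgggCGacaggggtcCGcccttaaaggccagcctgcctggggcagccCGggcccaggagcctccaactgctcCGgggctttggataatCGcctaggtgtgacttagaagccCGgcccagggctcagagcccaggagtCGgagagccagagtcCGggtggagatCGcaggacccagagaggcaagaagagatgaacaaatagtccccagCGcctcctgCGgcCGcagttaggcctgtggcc
Hoxd10: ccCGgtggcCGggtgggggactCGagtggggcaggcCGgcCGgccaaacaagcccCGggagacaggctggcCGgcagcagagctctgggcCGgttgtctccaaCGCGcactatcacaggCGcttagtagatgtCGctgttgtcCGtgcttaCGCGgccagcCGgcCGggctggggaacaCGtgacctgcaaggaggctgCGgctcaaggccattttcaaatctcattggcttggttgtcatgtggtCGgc

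Hoxa13 holds 35 CG pairs in these bases, Hoxa6 24 and Hoxb4 14, and Hoxd4 holds 3, Hoxd9 13 and Hoxd10 20. Of members with a sequence that are not shown, Hoxa2 and Hoxa5, below input, hold 6 and 28. Hoxd3 and Hoxd11, which rank above Hoxd9 and Hoxd10 by mean log2 ratio, hold 12 and 2. Over the 5 members below input with a sequence the number ran from 6 to 35 with a median of 24. Over the 14 members that were not called it ran from 2 to 31 with a median of 12, so the ranges of the groups overlapped over most of their length. The median over all 18657 RefSeq promoters of genes in the table was 10. The letters TATAAA, searched on both strands, occurred in 3 of the 19 Hox promoters (15.8%), Hoxd4 among them, and in 10.8% of all these promoters.

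The Hox promoters lay at the low side of the table in H3K9me2. The tissue is a bulk sample, in which fewer marked cells and less mark per cell cannot be told apart. By edgeR 13 of the 39 were below input (33.3%), compared with 17.0% of all 26354 promoters. None was above input, compared with 18.6% of all promoters, and none was above input at an unadjusted p under 0.05 by edgeR with or without the experiment as a block or by DESeq2. The 13 were Hoxa2, Hoxa4, Hoxa5, Hoxa6, Hoxa13, Hoxb2, Hoxb3, Hoxb4, Hoxb6, Hoxb7, Hoxb9, Hoxc4 and Hoxc5. With the experiment as a block, 6 of them were below input (15.4%), against 8.30% of all promoters, and the block put 15.8% of all promoters above input. These 6 were Hoxa4, Hoxb3, Hoxb6, Hoxb7, Hoxb9 and Hoxc4, and the other 7 had adjusted p values from 0.0502 at Hoxb2 to 0.108 at Hoxc5. DESeq2 called no Hox promoter below input, and 29 (0.11%) of all promoters. It gave no adjusted p at 37 of the 39, and at 17372 of all 26354 promoters. Of the Hox promoters 8 had an unadjusted p under 0.05 by DESeq2. Counts at an unadjusted p, here and below, were not made over all promoters.

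The calls also rested on single libraries. They numbered 12 (30.8%, against 15.2% of all promoters) without the ChIP library of v102, where 9 of the 13 remained and Hoxa7 and Hoxd12 were among those that joined them. They numbered 4 (10.3%, against 8.83% of all promoters) without that of v134, a share near the background, and 0 without either input, where 6 and 8 members had an unadjusted p under 0.05. Of all promoters, 495 and 515 (1.88% and 1.95%) were below input without the v102 and the v134 input.

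The median log2 H3K9me2/input ratio, taken with a pseudocount of 1 read and averaged over the experiments, was -0.82 over the 39 Hox promoters and -0.31 over every promoter. The deposited unscaled ratio lay under the 75th percentile of the table, 0.343, at every Hox promoter. In all, 23 members (59.0%) were below the median promoter in both experiments, compared with 38.1% of all promoters. Hoxd3, Hoxd11 and Hoxc12 alone were above it in both. In v134 alone 9 members were below it, and in v102 alone 4. Reads were few: 17 members (43.6%) had at most 3 ChIP reads over both experiments, against 19.0% of all promoters.

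**Figure D1:**
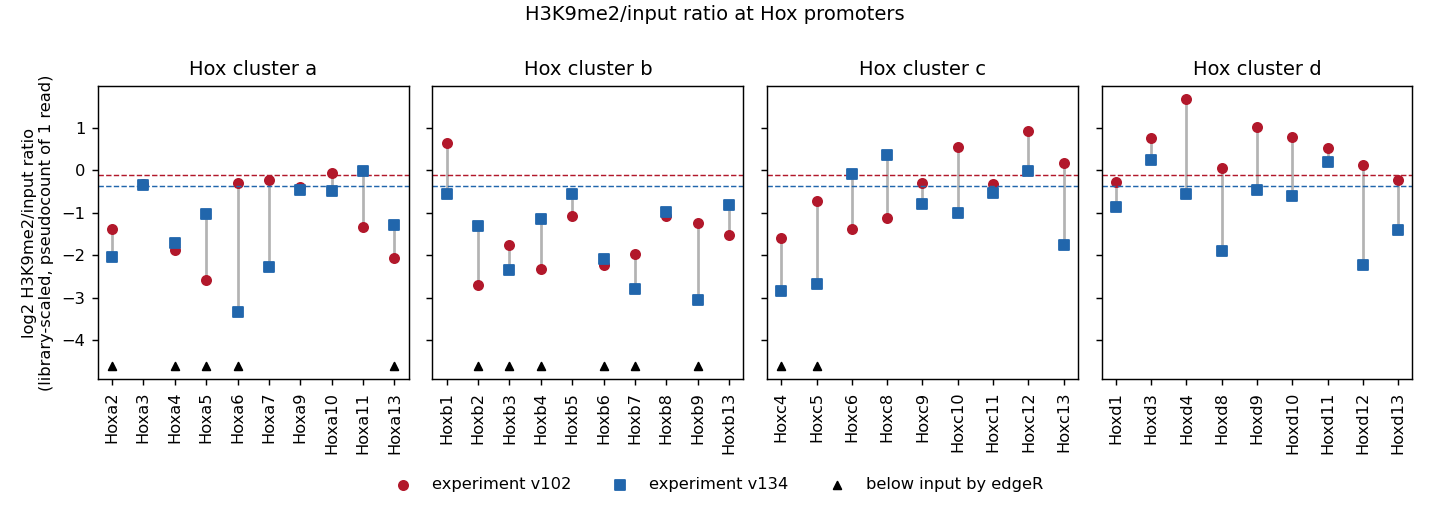
Log2 H3K9me2/input ratio of Hox promoters (y axis, library-scaled, pseudocount of 1 read) in experiment v102 (circles) and v134 (squares), with 1 panel a cluster and members in order of paralog number. Grey lines join the 2 experiments, dashed lines are the median of every promoter in each, and triangles mark the 13 members below input by edgeR, of which cluster d has none.

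Summed over both experiments, H3K9me2 differed beyond counting error between some pairs of clusters, and in v134 alone only between c and b. The intervals behind this are too narrow for the difference between experiments. Of the members, 5 of 11 in cluster a (45.5%), 6 of 10 in b (60%), 2 of 9 in c (22.2%) and 0 of 9 in d were below input. Over all promoters this share was 17.0%, so that of c was near the background. With the block the counts were 1, 4, 1 and 0, against 8.30% of all promoters. In groups this small, counts of 0 or 1 cannot be told apart from these background shares. In cluster d no member was below input at an unadjusted p under 0.05 either, by edgeR with or without the block or by DESeq2. Summed over members, cluster b had the lowest ratio, 0.271 (interval 0.192 to 0.382), with 0.281 in v102 and 0.262 in v134. Cluster a followed at 0.385 (0.294 to 0.504), with 0.411 and 0.370. Clusters a and b thus lay at a similar level in both experiments. Cluster c was at 0.614 (0.480 to 0.785), with 0.747 in v102 and 0.515 in v134. Cluster d was at 0.812 (0.639 to 1.03), but with 1.34 in v102 and 0.487 in v134.

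Of the 6 pairs of clusters, c against b was the only pair whose interval excluded 1 in each experiment, with no adjustment for the number of pairs. The ratio in cluster c was 2.66 times that in b in v102 (1.37 to 5.39) and 1.96 times in v134 (1.07 to 3.71). Cluster d exceeded b 4.79-fold in v102 (2.52 to 9.52) and 1.86-fold in v134 (0.982 to 3.58), so the second interval included 1. Against cluster a, d was 3.27-fold higher in v102 (1.87 to 5.81) and 1.32-fold in v134 (0.752 to 2.29). Cluster d and c differed 1.80-fold in v102 (1.09 to 2.99) and had a ratio of 0.947 in v134 (0.543 to 1.64). Over both experiments c was 1.60 times a (1.09 to 2.35), with intervals of 1.02 to 3.30 in v102 and 0.820 to 2.36 in v134. Clusters a and b were not distinguishable, at 1.42 (0.898 to 2.28).

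**Figure D2:**
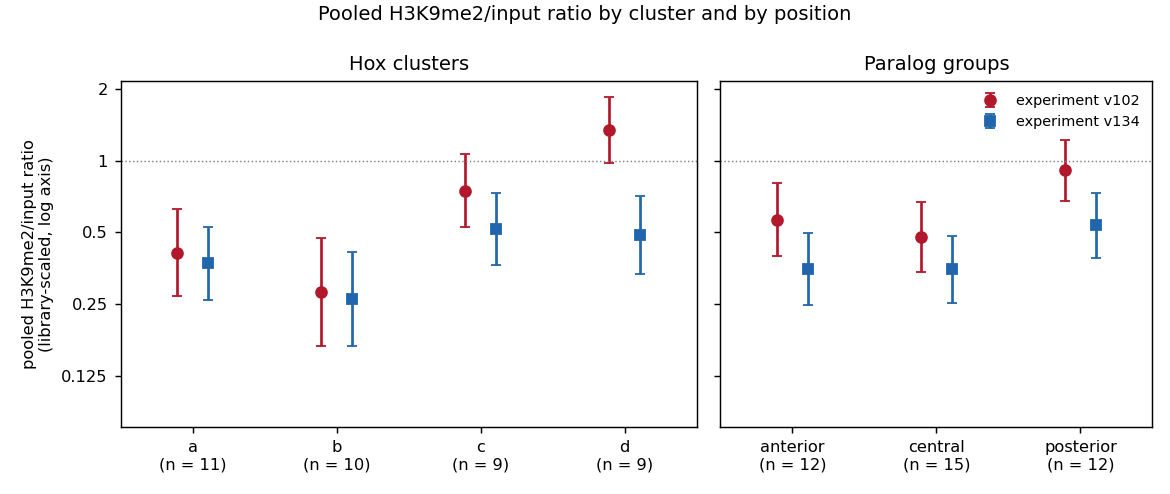
Pooled H3K9me2/input ratio (y axis, log scale, 1 is the average of the table) of each Hox cluster and of anterior, central and posterior members in v102 (circles) and v134 (squares), with 95% Wilson intervals as bars. Clusters a and b lie below 0.5 in both experiments, and the experiments are farthest apart in cluster d, at 1.34 and 0.487.

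By position, H3K9me2 summed over both experiments was higher at posterior than at anterior and central members. Of the anterior members 6 of 12 (50%) were below input, and of the central 6 of 15 (40%). Of the posterior it was 1 of 12 (8.33%), which was Hoxa13, against 17.0% of all promoters. With the block these were 3, 3 and 0, against 8.30% of all promoters. Counts of 0 or 1 of 12 cannot be told apart from these background shares. The pooled ratio was 0.434 (0.339 to 0.557) in anterior, 0.400 (0.317 to 0.505) in central and 0.696 (0.562 to 0.862) in posterior members. Posterior members were 1.60 times anterior ones over both experiments (1.14 to 2.26), with 1.62 in v102 (0.995 to 2.65) and 1.52 in v134 (0.924 to 2.53), where both intervals included 1. They were 1.74 times central ones (1.25 to 2.42), with 1.91 in v102 (1.18 to 3.09) and 1.53 in v134 (0.951 to 2.47). Central and anterior members were not distinguishable, at 0.922 (0.646 to 1.32).

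Position and cluster are not balanced, since cluster b has a single posterior member, Hoxb13, and cluster c a single anterior one, Hoxc4. Without cluster d, which was a choice made after the data were seen, posterior members were 2.10 times anterior ones in v102 (1.11 to 4.06) and 1.98 times in v134 (1.07 to 3.71). Against central ones they were then 2.19 times in v102 (1.20 to 4.02) and 1.55 times in v134 (0.902 to 2.65), where the interval included 1. Within cluster c the ratio was 0.815 (0.587 to 1.13) over the 4 posterior members, 0.546 (0.372 to 0.801) over the 4 central ones and 0.0790 (0.0138 to 0.453) at Hoxc4. The order of posterior and central members turned between the experiments, at 1.26 and 0.434 in v102 and 0.521 and 0.627 in v134. Within cluster a it was 0.523 (0.326 to 0.838) over posterior, 0.336 (0.211 to 0.533) over central and 0.344 (0.217 to 0.547) over anterior members. Here the posterior members were the lowest in v102, at 0.369 against 0.458 and 0.399, and the highest in v134, at 0.640 against 0.276 and 0.307. In cluster b the central members had the lowest ratio, 0.195 (0.108 to 0.354), with 0.340 (0.216 to 0.533) in anterior ones and 0.290 (0.0954 to 0.880) at Hoxb13. In cluster d the anterior members had 0.936 (0.624 to 1.40), the central 0.686 (0.420 to 1.12) and the posterior 0.801 (0.554 to 1.16). The intervals of the position groups overlapped within a, b and d, and in c that of Hoxc4 did not overlap that of the posterior members.

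By paralog number the pooled ratio was lowest in group 2, at 0.171 (0.0720 to 0.407) over Hoxa2 and Hoxb2, and highest in group 12, at 0.996 (0.629 to 1.58) over Hoxc12 and Hoxd12. It was 0.855 (0.596 to 1.23) in group 10 and 0.737 (0.499 to 1.09) in group 11. Group 13, the most posterior, had 0.297 (0.163 to 0.542) over its 4 members, of which Hoxa13 alone was below input, and its interval overlapped that of group 11 but not those of groups 10 and 12. Groups 5, 6 and 7 had 0.268, 0.263 and 0.223. This order held for the pooled counts and not in each experiment. In v134 the lowest was group 7 at 0.0613, with 0.477 in v102, and the highest group 11 at 0.816, with 0.626 in v102. Group 2 had 0.0887 in v102 and 0.225 in v134, and group 12 had 1.51 and 0.570.

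The 2 experiments did not give the same picture of cluster d. All 9 Hoxd members had a higher log2 ratio in v102 than in v134, compared with 18 of the 30 members of the other clusters. Of the Hoxd members 2 were below the median promoter in v102 and 7 in v134. The pooled Hoxd ratio in v102 was 2.76 times that in v134 (1.63 to 4.72). For clusters a, b and c the same quotient was 1.11 (0.611 to 1.99), 1.07 (0.494 to 2.28) and 1.45 (0.856 to 2.46). Within cluster d it was 2.34 (0.935 to 5.92) at anterior, 4.37 (1.32 to 16.6) at central and 2.54 (1.10 to 6.03) at posterior members. Over all Hox members the Spearman rho of the experiments was 0.33, and over every promoter 0.69, as a description of promoters that share libraries.

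In cluster b, Hoxb6 and Hoxb7, central genes that pattern the trunk, had no ChIP read in either experiment. Their input reads were 17 in v102 and 19 in v134 at Hoxb6 (start at 96292476) and 14 and 32 at Hoxb7 (start at 96286623). Against a floor of 3 reads over both ChIP libraries, Hoxb6 was at least 2.76-fold lower and Hoxb7 at least 3.53-fold lower than the average of the table (edgeR adjusted p = 0.0065 and 0.0024). The upper limits of the Wilson intervals of their ratios, which are wider than this floor, were 0.464 and 0.363. The table holds 523 promoters (1.98%) without a ChIP read in both experiments. Hoxb9 had 2 and 0 ChIP reads against 26 and 38 input reads, a ratio of 0.136 (0.0366 to 0.504), and a log2 fold change over input of -2.69 (standard error 0.86, adjusted p = 0.0089).

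Hoxb2, Hoxb3 and Hoxb4, anterior genes of the hindbrain and neck, were below input as well. Hoxb3 had 1 ChIP read in each experiment against 25 and 47 input reads, a ratio of 0.121 (0.0326 to 0.447), and its log2 fold change was -2.85 (standard error 0.84, adjusted p = 0.0040). Hoxb2 had 0 and 3 ChIP reads against 24 and 46, a ratio of 0.186 (0.0621 to 0.559), with an adjusted p of 0.0136, and 0.0502 with the block. Hoxb4, whose sequence is shown above, had 0 and 3 against 18 and 41, a ratio of 0.221 (0.0733 to 0.666), with an adjusted p of 0.038, and 0.0996 with the block. All ChIP reads of Hoxb2 and Hoxb4 came from v134 and those of Hoxb9 from v102. These members were low in both experiments, and counts this small do not show whether the experiments differed. Hoxb1, an anterior gene known from rhombomere 4 of the hindbrain, had the highest ratio of the cluster at 0.949 (0.513 to 1.75), from 8 and 4 ChIP reads against 21 and 34.

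In cluster a, Hoxa2, which patterns the hindbrain and the branchial arches, and Hoxa4 had 1 ChIP read in each experiment, and each a ratio of 0.153 (0.0410 to 0.567). Hoxa2 had 19 and 38 input reads and a log2 fold change of -2.51 (standard error 0.89, adjusted p = 0.0190, with the block 0.0575). Hoxa4 had 27 and 30 input reads and a log2 fold change of -2.55 (standard error 0.89, adjusted p = 0.0166, with the block 0.0497). These members were low in both experiments. Hoxa5, known for lung and cervical development, had 0 and 2 ChIP reads against 22 and 28, a ratio of 0.174 (0.0466 to 0.649, log2 fold change -2.35, adjusted p = 0.0328, with the block 0.0892). Hoxa6, the lowest of the cluster by mean log2 ratio, had 2 and 0 against 13 and 47, a ratio of 0.145 (0.0390 to 0.538, log2 fold change -2.55, adjusted p = 0.0162, with the block 0.0855). Hoxa6 was the least even of all 39 members, with log2 ratios of -0.29 in v102 and -3.35 in v134.

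Hoxa13, a posterior gene of the distal limb and the urogenital tract, had 0 and 1 ChIP reads against 15 and 22 input reads. Its ratio was 0.117 (0.0204 to 0.678) and its log2 fold change -2.85 (standard error 1.14, adjusted p = 0.0384, with the block 0.102). The other posterior Hoxa genes were not called. Hoxa10, known from the uterus and the proximal limb, was the highest of the cluster by mean log2 ratio, with 4 ChIP reads in each experiment against 19 and 32 input reads and a ratio of 0.682 (0.329 to 1.41). That of Hoxa3 was 0.686 (0.377 to 1.25). Hoxa11, the neighbour of Hoxa10, had 2 and 8 against 28 and 42.

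In cluster c the members below input were those at the anterior end of the cluster, Hoxc4 and Hoxc5. Hoxc4 had 1 and 0 ChIP reads against 22 and 33 input reads, a ratio of 0.0790 (0.0138 to 0.453) and a log2 fold change of -3.42 (standard error 1.06, adjusted p = 0.0068, with the block 0.0339). Hoxc5 had 2 and 0 against 18 and 29, a ratio of 0.185 (0.0495 to 0.691) and a log2 fold change of -2.24 (standard error 0.93, adjusted p = 0.0450, with the block 0.108). Toward the posterior end Hoxc12 had the highest fitted value of all Hox members, with 12 and 7 ChIP reads against 25 and 37 input reads. Its ratio was 1.33 (0.801 to 2.22) and its log2 fold change 0.56 (standard error 0.47, adjusted p = 0.345), so it was not distinguishable from the average of the table.

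In cluster d, Hoxd4, an anterior gene of the hindbrain, had the highest mean log2 ratio of all members, 0.55 ± 1.58 (SD, n = 2), with 9 and 5 ChIP reads against 11 and 41 input reads. Its log2 ratio was 1.67 in v102 and -0.57 in v134, so it was high in the former only. Hoxd3 followed at 0.50 ± 0.37, with 3 and 5 ChIP reads against 8 and 23. Hoxd11, a posterior gene of the limb, had 5 and 6 against 15 and 28, and 0.35 ± 0.23. Hoxd3 and Hoxd11 were above the median promoter in both experiments. Hoxd9 had 8 and 3 ChIP reads against 16 and 25, and Hoxd10 had 12 and 5 against 28 and 42, both above the median promoter in v102 and below it in v134. Hoxd12 was the lowest of the cluster by mean log2 ratio, with 3 and 0 ChIP reads against 13 and 21, a ratio of 0.384 (0.125 to 1.18) and a log2 fold change of -1.21 (adjusted p = 0.266). Hoxd13 was lower by the pooled ratio, 0.272 (0.0720 to 1.03), and by log2 fold change, -1.68, from 1 ChIP read in each experiment.

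Other rows of the table lie inside the clusters, and in v134 those in cluster d differed from the Hoxd genes. Gm14396 had 6 and 14 ChIP reads against 13 and 27 input reads, Gm14424 had 9 and 19 against 26 and 32, and Gm14426 had 9 and 22 against 33 and 24. All 3 were above input (edgeR adjusted p = 0.0381, 0.0219 and 0.0090, with the block 0.0990, 0.0542 and 0.0418), while the fourth row inside the cluster, Mir10b, was not called. Of all promoters 18.6% were above input, and 15.8% with the block. The windows of Gm14424 and Gm14426 overlap (starts at 74752684 and 74754455), so their calls can rest in part on the same reads. Pooled, the 4 rows inside the cluster had a ratio of 1.72 (1.35 to 2.20), with 1.19 in v102 and 2.16 in v134. Reads in the overlap can be counted more than once in this ratio. The Hoxd members had 1.13 times the pooled ratio of these rows in v102 (0.650 to 1.97) and 0.225 times in v134 (0.133 to 0.377). Pooled, the Hoxd genes were higher in v102 and the other rows in v134, with a quotient of v102 to v134 of 0.551 (0.318 to 0.945) for the latter. Mir10b went the other way, with log2 ratios of 0.10 in v102 and -0.79 in v134.

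Inside cluster a, 5730596B20Rik and Gm15050 were below input (adjusted p = 0.0126 and 0.0380, with the block 0.0512 and 0.0969) and Mir196b was not called. Inside cluster b, Gm11536 was below input among 5 rows (adjusted p = 0.0319, with the block 0.102), and inside cluster c none of Hotair, Mir196a-2 and Mir615 was called. In clusters a and b the Hox members and the other rows were not distinguishable, with quotients of 1.85 (0.854 to 4.57) and 0.608 (0.352 to 1.06). In cluster c the quotient was 1.10 in v102 (0.547 to 2.34) and 0.463 in v134 (0.262 to 0.829). The sides of these quotients can share reads, since the windows of Mir196b, Mir10a and Mir615 overlap those of Hoxa9, Hoxb4 and Hoxc5. The intervals treat the sides as independent and do not allow for this. Within 200 kb outside the clusters, 2 of 18 rows were below input (11.1%), Smug1 and Ttll6, and 1, Snf8, was above. These compare with 17.0% and 18.6% of all promoters. With the block Smug1 (adjusted p = 0.0395) and Snf8 were called and Ttll6 (0.0707) was not. The pooled ratio of these rows was 1.19 next to cluster a, 1.40 next to b, 0.556 next to c and 0.908 next to d. Snf8 gave 29 and 61 of the 221 ChIP reads next to b. The windows of Gm11529 and Skap1 next to b nearly coincide (starts at 96464547 and 96464593), and both rows were counted. Among the rows outside the clusters, Evx1 and Evx2, homeobox genes next to the posterior ends of clusters a and d, were not called. Their log2 fold changes were 0.81 and 0.07.

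**Figure D3:**
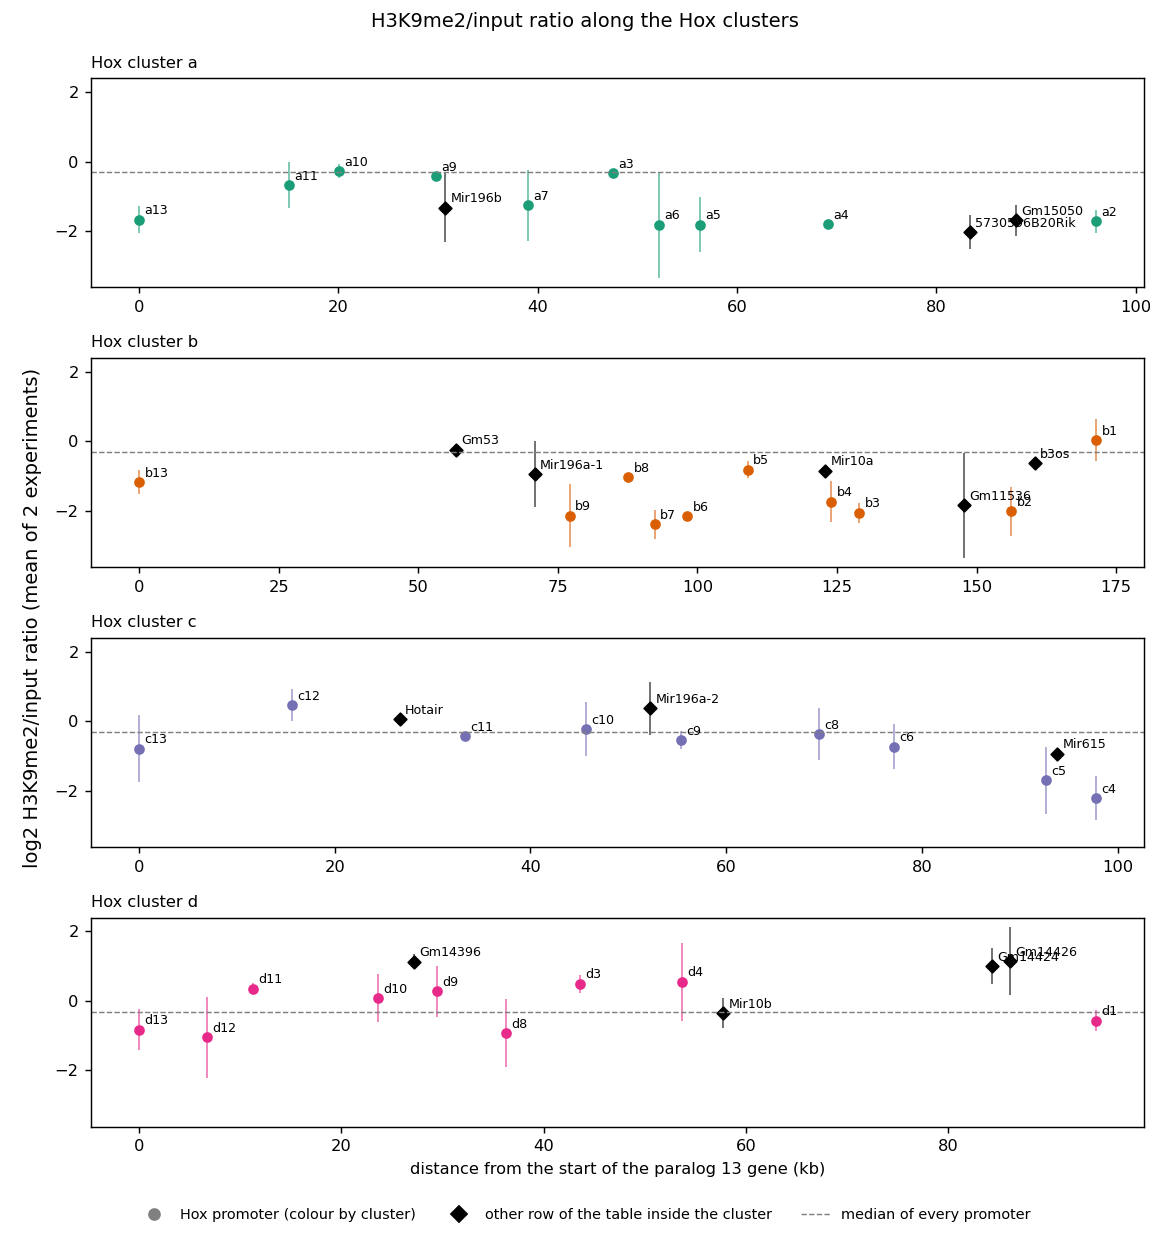
Mean log2 H3K9me2/input ratio of the 2 experiments (y axis) against distance from the start of the paralog 13 gene in kb (x axis), with 1 panel a cluster, Hox promoters as circles and other rows as diamonds. Vertical lines span the 2 experiments and the dashed line is the median of every promoter, -0.31. In cluster c the values lie lowest at the anterior end, at Hoxc5 and Hoxc4, and in cluster d Gm14396, Gm14424 and Gm14426 lie above the Hoxd genes.

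GC-rich promoters had the lower ratios over the table, but among the Hox genes the ratio did not order with GC content, which ran from 45.1% at Hoxb3 to 67.3% at Hoxa13. Over the 22329 promoters with a GENCODE match, the Spearman rho of GC content with the mean log2 ratio was -0.54, and over the 39 Hox promoters -0.0017. For the number of CpG pairs it was -0.56 and 0.06. The GC content of the Hox windows had a median of 55.4%, against 50.9% over matched promoters. After the trend with GC was removed by a lowess fit, the Hox median was -0.51 and that of every promoter -0.36. The median percentile of the Hox promoters was 35.0 before and 44.1 after. It rose in every cluster, from 15.1 to 30.4 in a, 8.81 to 17.3 in b, 43.4 to 65.3 in c and 61.2 to 75.5 in d, and the order of the clusters was kept. Hoxb3, with 45.1% GC, had a mean log2 ratio of -2.06 and Hoxd4, with 46.3% GC, had 0.55. The part of base composition in the differences between clusters was not tested beyond these values.

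**Figure D4:**
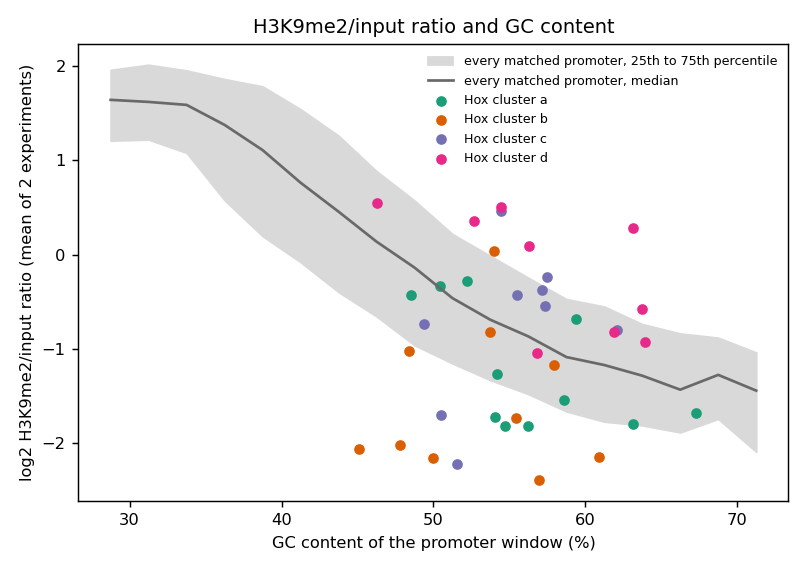
Mean log2 H3K9me2/input ratio (y axis) against GC content of the promoter window in percent (x axis) for the 39 Hox promoters, coloured by cluster, over the median (line) and the 25th to 75th percentile (band) of every matched promoter. The line falls with GC, while the Hoxb promoters lie mostly under the band and the Hoxd promoters mostly at its upper part or above it.

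Of the 127 homeobox genes outside the Hox clusters in a list of gene families, 22 were below (17.3%) and 13 above input. This compares with 17.0% and 18.6% of all promoters, so the share below was near the background. With the block 7 were below and 7 above, against 8.30% and 15.8% of all promoters. The 127 had a median log2 ratio of -0.40 and a pooled ratio of 0.795 (0.747 to 0.845). That of the Hox promoters, 0.496 (0.434 to 0.566), was 0.635 times theirs in v102 (0.511 to 0.784) and 0.609 times in v134 (0.490 to 0.752), so here the 2 experiments gave nearly equal values. The lowest by mean log2 ratio was Cux1 and the highest Lhx3, the latter above input with 17 and 16 ChIP reads against 23 and 24. Of the 6 ParaHox genes, the sister group of the Hox genes, none was called, with a pooled ratio of 1.03 (0.696 to 1.51) in v102 and 0.481 (0.311 to 0.743) in v134 and the lowest adjusted p, 0.0518, at Cdx2.

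Among the partners of Hox proteins on DNA, the 9 Pbx, Meis and Pknox promoters, 4 were below (44.4%) and 0 above input. This compares with 17.0% and 18.6% of all promoters. The 9 had a pooled ratio of 0.287 (0.200 to 0.412) and a median log2 ratio of -1.57. The 4, which were also called with the block, were Meis1, Meis3, Pknox1 and Pknox2, and Meis3 had no ChIP read against 19 and 25 input reads. Of 16 genes of the Polycomb complexes, which silence Hox genes, 5 were below input, Eed and Suz12 among them, and 1 above, against 17.0% and 18.6% of all promoters, with a median log2 ratio of -1.21. With the block 1 of 16, Eed, remained below, against 8.30% of all promoters. The promoter above input was Cbx7, with 20 and 29 ChIP reads against 22 and 53 (log2 fold change 1.67). Of 11 genes of the Trithorax group and related demethylases, which keep Hox genes active, 7 were below input (63.6%) and 0 above. This compares with 17.0% and 18.6% of all promoters, and the median log2 ratio of the 11 was -1.55. Those listed as Mll2 and Mll3, with Ash1l, Wdr5, Men1, Kdm6a and Kdm6b, were the 7, of which Wdr5 and Kdm6b were called with the block. Of 12 genes of the retinoic acid pathway, an inducer of anterior Hox genes, the receptors Rara and Rarg were below input with no ChIP read in either experiment, and the other 10 were not called. These 2 of 12 (16.7%) are a share near the 17.0% of all promoters, and the median log2 ratio over the 12 was -0.85.

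As a check of the label, 3 of 7 contractile smooth muscle promoters (Myh11, Lmod1 and Myocd) were below input and 1, Smtn, above, and with the block Myh11 and Smtn were called. Of 5 endothelial, 4 adventitial fibroblast and 4 leukocyte marker promoters, 1, 1 and 0 were below and 0, 0 and 1 above. Of all promoters, 17.0% were below and 18.6% above input, and 8.30% and 15.8% with the block. The pooled ratio in v102 was 0.545 in contractile, 1.24 in endothelial, 1.497 in fibroblast and 1.77 in leukocyte markers. In v134 it was 0.758, 0.714, 0.695 and 1.25, so that contractile markers were the lowest in v102 only. Single promoters carried much of these sums, since Smtn gave 15 and 34 of the 68 ChIP reads of contractile and Ptprc 15 and 39 of the 91 of leukocyte markers. A histone mark at a promoter is not expression, so these values describe the mark and do not measure the share of each cell type.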

How the data were processed

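The data were 2 H3K9me2 ChIP and 2 input libraries of aortic medial layer, sequenced as paired-end reads. Per the labels and the study's methods, the authors trimmed reads with Trim Galore 0.4.2 and cutadapt 1.9.1, aligned them to GRCm38 with Bowtie2 2.2.7 and counted reads within 1 kb of transcription start sites in SeqMonk. The authors deposited raw counts of each library, and an unscaled ratio, in which ChIP counts of both experiments are divided by their input counts. The lowest summed input was 21 reads. How duplicate reads were treated and which annotation release was used are not given in the sources used here.

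ChIP and input were compared by edgeR 4.0.16 under R 4.3.3 (quasi-likelihood test, TMM, Benjamini-Hochberg over all 26354 promoters), fitted to 2 libraries against 2 and tested on simulated counts. Alternatives were the experiment as a block, library totals, DESeq2 1.42.0, at least 20 reads in each input, other pseudocounts, mitochondrial rows left out and each library left out. Log2 ratios used a pseudocount of 1 read. Start sites and GC came from GENCODE vM21, in which 22329 symbols (84.7%) matched 1 gene and all 39 Hox members matched. For Hoxc5 and Hoxd4 another annotated transcript start was taken. The most upstream one of Hoxc5 could not be reconciled with the order of rows in the table. That of Hoxd4 lay within 10 bases of the start of Hoxd3, although the counts of these members differ. A match of the symbol does not show that the authors used the same start. Ratios and figures were made with statsmodels 0.14.6, scipy 1.17.1, matplotlib 3.10.9 and pandas 2.3.3 in Python 3.11.15.

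The labels pair every ChIP library with an input of its experiment, so the numbers v102 and v134 pair the libraries. Across promoters the difference between the 2 ChIP libraries and that between the 2 inputs had a correlation of 0.104. The pairs differed by more than counting error (chi-square per degree of freedom 1.52 for ChIP and 1.28 for input), so neither is a repeat deposit of 1 library. Nothing states which animals the experiments used, so p values measure the spread between these libraries. Members, gene lists and alternatives were chosen with earlier results of these data known. Members are given in full where they passed the test, had no ChIP read, were among the 5 highest or lowest, or were the highest or lowest of their cluster. Other members and rows were named after their values were seen. Some single promoters are not reported here.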

Additional observations from a re-analysis of the deposited data

How the results depend on the processing

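The number of Hox promoters below input, 13, held with library totals in place of TMM and without mitochondrial rows (the same 13 each time). It was 6 with the replicate block (ChIP and input of an experiment paired), 4 of 19 members (21.1%, against 12.0% of all promoters) at a minimum of 20 reads in each input, and 0 by DESeq2, which put 29 of all promoters below. Across the fits without 1 library it ran from 0 to 12. A fit without a library leaves 1 in that arm, assumed to vary like the others. None was above input in any of these. The block kept the direction of every member named in full, and 7 of the 13 calls were lost, as given above.

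Direction depended on the setting at members near the average. Hoxb1, at 0.07, was -0.0699 with library totals, which shift the median promoter by -0.14. Across the fits without 1 library, log2 fold changes ran from -0.63 to 0.74 at Hoxb1, -0.0046 to 1.15 at Hoxc12, -0.20 to 1.12 at Hoxd4, -0.62 to 1.16 at Hoxd9 and -0.66 to 0.97 at Hoxd10. They turned negative without the v102 ChIP, and at Hoxb1 also without the v134 input (-0.02). Hoxd12 ran from -6.67 without the v102 ChIP, where it was below input with no ChIP read left, to 0.0263 without the v134 ChIP.

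The Hox median, -0.82, was 0.0438 with a pseudocount of 5 reads, where the median promoter was 0.34, and -1.01 to -0.33 with 1 experiment left out. It was below the median of every promoter in each setting. At that minimum of 20 reads the pooled ratio was 0.429 in cluster a, 0.318 in b, 0.713 in c and 0.686 in d, so that the order of c and d turned. Without mitochondrial rows the pooled ratio was 0.347 in a, 0.244 in b, 0.553 in c and 0.732 in d. With those rows kept, the median of the members was 0.343 in a, 0.273 in b, 0.688 in c and 1.06 in d. By position this median was 0.323 in anterior, 0.491 in central and 0.682 in posterior members. With the GC trend removed, chosen after the data were seen, the medians were 0.543 in a, 0.398 in b, 1.02 in c and 1.25 in d. By position they were then 0.535 in anterior, 0.529 in central and 1.02 in posterior members. With 1 experiment left out the ratio ran from 0.370 to 0.411 in a, 0.262 to 0.281 in b, 0.515 to 0.747 in c, 0.487 to 1.34 in d, 0.351 to 0.564 in anterior, 0.349 to 0.479 in central and 0.534 to 0.912 in posterior members. No Hox windows overlapped, so counting shared windows once changed nothing in the ratios of the Hox members. The causes were not tested. Since 17 members had at most 3 ChIP reads, a difference at a single promoter was not detectable at this depth unless large.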
